A study of Mus musculus with 12 samples.

Results

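A group of 78 genes was listed at under 0.5 FPKM in each of the 8 Apc_HET and Apc_WT libraries and at 3 FPKM or more in each of the 4 Apc_KO libraries. FPKM counts fragments per kilobase of transcript, scaled to the mapped fragments of the library, so it is a relative level. Of 14430 gene symbols present in the tables of all 3 genotypes, 99 met both limits. From these, 21 were left out by name, 8 of them for unnamed-gene symbols of the Gm or Rik type and 13 for belonging to named families or to well-known Wnt and stromal genes. The remaining 78 were 77 protein-coding genes and 1 gene for a long non-coding RNA, H19. The genes were thus chosen by their FPKM values in all 12 libraries, and the contrast between Apc_KO and the other genotypes is a description of how the genes were chosen and carries no test.

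The libraries came from Lgr5-GFP+ intestinal stem cells sorted by FACS from C57BL/6 mice, with 4 mice per genotype per the design text. The genotypes were ApcFlox/Flox (Apc_KO), ApcFlox/+ (Apc_HET) and Apc+/+ (Apc_WT). All 12 mice, the Apc+/+ controls included, carried Lgr5-CreERT2-ires-eGFP, a Cre recombinase and green fluorescent protein driven from the Lgr5 locus, and all received tamoxifen as 1 injection and 5 days of diet. RNA was taken on day 15 and copied into cDNA with random primers. The labels give no age, sex, batch or date.

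Apc is a scaffold of the complex that marks β-catenin for destruction. When no working copy is left, β-catenin accumulates, enters the nucleus and, with TCF and LEF factors, raises transcription of Wnt target genes. The Lgr5+ stem cells at the crypt base are a cell of origin of intestinal adenomas in mice, and loss of the second Apc copy is the classical initiating step. One intact copy is ordinarily enough to keep the destruction complex working.

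Markers of the sorted type were present in every genotype, at unequal levels. Lgr5, the receptor used for sorting, was at 65.4, 35.4, 36.3 and 27.0 FPKM in Apc_KO replicates 1 to 4, at 21.3 to 31.6 FPKM in Apc_HET and at 20.2 to 30.0 FPKM in Apc_WT. The epithelial adhesion molecule Epcam was at 649 to 1110 FPKM in Apc_KO and 741 to 882 FPKM in Apc_WT. 2 other epithelial genes were lower in Apc_KO. Vil1 was at 69.9 to 102 FPKM in Apc_KO and 176 to 268 FPKM in Apc_WT. Cdh1 was at 110 to 171 FPKM in Apc_KO and 183 to 221 FPKM in Apc_WT. In the fit of all genes given below, 17.7% of 12962 genes were called lower in Apc_KO than in Apc_WT. Olfm4, another stem cell marker, averaged 391 ± 343 FPKM in Apc_KO, 6301 ± 1328 FPKM in Apc_HET and 5461 ± 340 FPKM in Apc_WT (SD, n = 4 each). Ascl2 and Smoc2, also stem cell markers, averaged 18.1 ± 5.16 and 104 ± 24.7 FPKM in Apc_KO. In Apc_WT they averaged 19.9 ± 2.53 and 119 ± 5.87 FPKM. Krt8, an epithelial gene, averaged 435 ± 128 FPKM in Apc_KO and 468 ± 55.5 FPKM in Apc_WT. Apc itself averaged 13.8 ± 3.18 FPKM in Apc_KO, 11.01 ± 1.11 FPKM in Apc_HET and 8.89 ± 1.64 FPKM in Apc_WT, so the gene total does not show the deletion, and the exons between the flox sites were not measured apart. Libraries summed to 391710 to 518428 FPKM. The number of reads behind a value is unknown, and low values could not be turned back into whole reads without an open factor of 2 between libraries.

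In Apc_KO the 78 genes averaged from 3.62 to 78.9 FPKM, with a median of 9.47 FPKM. There were 11 genes at 20 FPKM or more, 26 between 10 and 20 FPKM and 41 under 10 FPKM. Together they summed to 1127, 866, 897 and 1133 FPKM in Apc_KO replicates 1 to 4, to 9.17, 9.39, 12.4 and 7.92 FPKM in Apc_HET and to 6.67, 8.09, 7.91 and 8.79 FPKM in Apc_WT. The Apc_KO sums are 0.199% to 0.288% of each library's total. In 71 genes the lowest Apc_KO value was at least 10 times the highest of the other 8 libraries, counting the 4 genes that were at 0 in all 8.

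**Figure D1:**
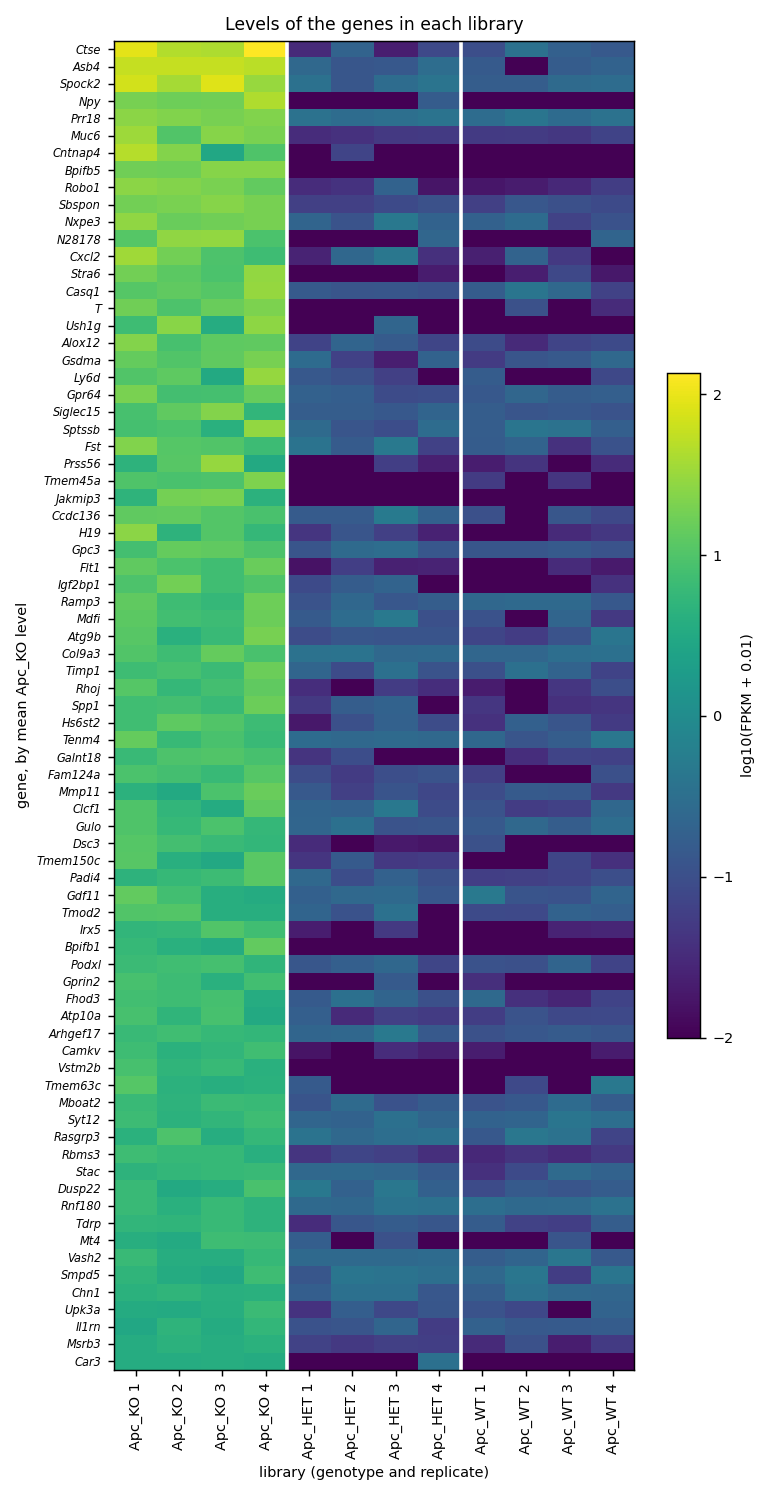
Level of 77 of the 78 genes (rows, ordered by mean Apc_KO level) in each of the 12 libraries (columns, Apc_KO left, then Apc_HET and Apc_WT), as log10(FPKM + 0.01), with values at 0 in the darkest shade. All 4 Apc_KO columns are light throughout, and the 8 Apc_HET and Apc_WT columns are dark and patchy, with 142 of the 624 values of all 78 genes at 0.

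Silence was not the same as absence. Of the 624 values in Apc_HET and Apc_WT, 142 were listed at 0, 63 of them in Apc_HET and 79 in Apc_WT. Bpifb5, Bpifb1, Jakmip3 and Vstm2b were at 0 in all 8 of these libraries. For the median gene, the highest of the 8 values was 0.218 FPKM. In bulk libraries, expression in a larger share of cells and more RNA per cell cannot be told apart, so an Apc_KO level of 10 FPKM does not say how many of the sorted cells carried the transcript.

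On the log2(FPKM + 1) scale, which understates ratios near 0, the median difference of the 78 genes was 3.15 for Apc_KO minus Apc_WT (range 2.10 to 5.92) and 3.16 for Apc_KO minus Apc_HET (range 2.07 to 6.06). Over all 12962 genes tested, the median difference was 0.12 for Apc_KO minus Apc_WT and 0.04 for Apc_KO minus Apc_HET. These comparisons share the Apc_KO libraries. In the fit across all genes with limma, 76 of the 78 genes were tested, since the loci of Tenm4 and Tmem63c differed between the deposited tables. All 76 were called higher at a Benjamini-Hochberg adjusted p under 0.05 in Apc_KO minus Apc_WT, where 27.9% of all genes tested were called higher and 45.5% in either direction, and in Apc_KO minus Apc_HET, where 22.8% were called higher and 41.8% in either direction. The choice of genes fixes these calls, and nothing is read from them.

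Between the genotypes with at least 1 intact copy the genes differed little, within limits that the rule itself sets. Apc_HET minus Apc_WT had a median of 0.02 over the 78 genes on the log2(FPKM + 1) scale, with a range of -0.14 to 0.22. The Apc_HET mean was above the Apc_WT mean in 49 genes, below it in 25 and equal in 4. No such count was made over all genes tested, where the median difference was 0.07. Apc_HET replicate 3 was the highest of the 8 libraries in 22 of the 78 genes. In Apc_HET minus Apc_WT limma called 0 of 12962 genes, a background of 0%, and 561 had an unadjusted p under 0.05. None of the 76 genes tested was among those 561. The rule bounds their differences, so nothing is read from this.

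By role, the Apc_KO means of the 8 genes for proteases and matrix proteins ran from 8.09 to 78.9 FPKM, of the 12 for secreted proteins from 4.22 to 24.4 FPKM, and of the 14 for signalling and cytoskeletal proteins from 4.36 to 56.8 FPKM. The 6 genes for transcription and RNA regulators ran from 5.70 to 15.7 FPKM, the 15 for enzymes and transport from 3.62 to 16.4 FPKM and the 10 with no role assigned from 5.26 to 22.7 FPKM. Levels of different genes are compared only as FPKM, per kilobase of transcript.

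Among the proteases and matrix proteins, Ctse had the highest mean of the group. Ctse encodes cathepsin E, an aspartic protease best known from gastric surface epithelium. It was at 91.3, 46.0, 42.6 and 136 FPKM in Apc_KO replicates 1 to 4, against 0.0207, 0.194, 0.0121 and 0.0710 FPKM in Apc_HET and 0.0895, 0.339, 0.173 and 0.135 FPKM in Apc_WT. Apc_KO replicates 1 and 4 were above replicates 2 and 3. The deposited locus spans 36.6% of the annotated gene, so these values describe part of it.

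Spock2, which encodes testican 2, a proteoglycan of the extracellular matrix, was at 71.3, 37.4, 84.6 and 31.6 FPKM in Apc_KO, against 0.334, 0.116, 0.280 and 0.384 FPKM in Apc_HET and 0.153, 0.156, 0.259 and 0.281 FPKM in Apc_WT. Here replicates 1 and 3 were the high pair. Prss56, a secreted serine protease, varied more, at 4.66, 11.6, 30.6 and 3.27 FPKM in Apc_KO, with at most 0.0475 FPKM in Apc_HET and 0.0316 FPKM in Apc_WT. The other 5 of the 8 genes of this class were named after their values were seen. They are Gpc3, a cell surface glypican, at 11.3 ± 3.24 FPKM, the collagen IX chain gene Col9a3 at 10.2 ± 3.04 FPKM, the metalloproteinase inhibitor gene Timp1 at 9.50 ± 4.36 FPKM, the heparan sulfate sulfotransferase gene Hs6st2 at 9.27 ± 2.76 FPKM and the metalloproteinase gene Mmp11 at 8.09 ± 5.53 FPKM (Apc_KO mean ± SD, n = 4 each).

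Of 12 genes for secreted proteins, Npy, Muc6 and Bpifb5 had the highest means. Npy, which encodes neuropeptide Y, was at 19.4, 16.6, 17.5 and 44.2 FPKM in Apc_KO, against 0, 0, 0 and 0.148 FPKM in Apc_HET and 0 in all 4 Apc_WT libraries. Replicate 4 stood above the others. Muc6, the mucin of gastric glands, was at 33.9, 10.1, 24.0 and 19.999 FPKM in Apc_KO, with at most 0.0406 FPKM in Apc_HET and 0.0579 FPKM in Apc_WT. Bpifb5, of the BPI fold family, was at 17.3, 16.7, 24.3 and 24.2 FPKM in Apc_KO and at 0 in every Apc_HET and Apc_WT library.

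Sbspon, a somatomedin B and thrombospondin domain protein, was among the steadier genes, at 17.6, 20.01, 24.3 and 19.5 FPKM in Apc_KO, with at most 0.0957 FPKM in Apc_HET and 0.123 FPKM in Apc_WT. The rest of the class includes cytokines, growth factor ligands and inhibitors of either. Gdf11, a ligand of the TGF-β family, was at 13.9, 7.67, 3.89 and 3.49 FPKM in Apc_KO, against 0.172, 0.235, 0.249 and 0.124 FPKM in Apc_HET and 0.466, 0.109, 0.102 and 0.206 FPKM in Apc_WT. Il1rn, the interleukin 1 receptor antagonist, was lower, at 3.01, 4.88, 3.48 and 5.52 FPKM in Apc_KO, with at most 0.211 FPKM in Apc_HET and 0.184 FPKM in Apc_WT. Named after their values were seen, the neutrophil chemokine gene Cxcl2 averaged 17.4 ± 12.6 FPKM, the activin inhibitor gene Fst 12.5 ± 6.69 FPKM and the osteopontin gene Spp1 9.47 ± 4.48 FPKM in Apc_KO (SD, n = 4 each).

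Genes for surface proteins numbered 13. Cntnap4, a contactin-associated protein of neurons, had the largest ratio of highest to lowest Apc_KO library among the 78 genes, at 46.7, 23.5, 3.01 and 9.89 FPKM in Apc_KO, against 0.0603 FPKM in 1 Apc_HET library and 0 in the other 7. Robo1, a receptor for Slit guidance ligands, was at 26.3, 22.8, 19.7 and 13.5 FPKM in Apc_KO, against 0.0233, 0.0311, 0.192 and 0.00684 FPKM in Apc_HET and at most 0.0458 FPKM in Apc_WT. The loci of Cntnap4 and Robo1 span 58.4% and 37.6% of their genes. Ly6d, of the Ly6 family, was at 10.4, 12.7, 3.26 and 30.0 FPKM in Apc_KO, with at most 0.128 FPKM in Apc_HET and 0.148 FPKM in Apc_WT.

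**Figure D2:**
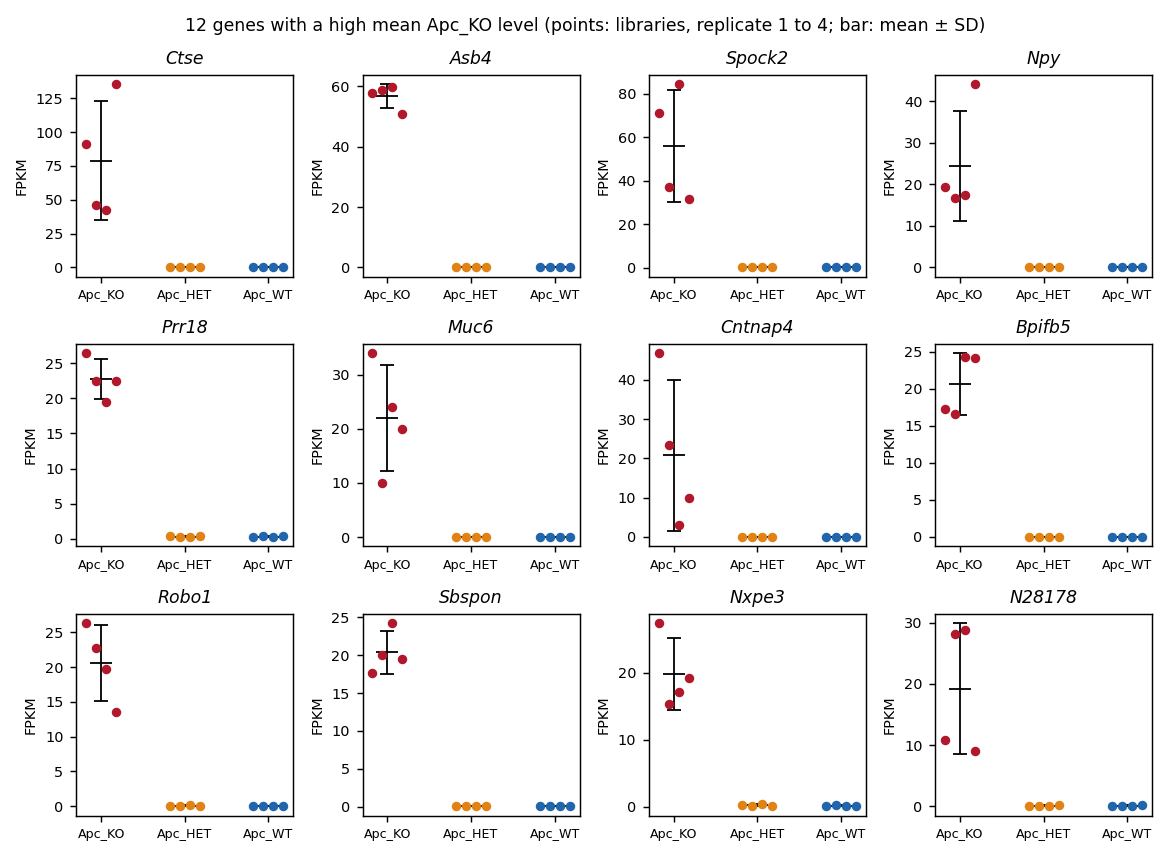
FPKM of 12 genes with a high mean Apc_KO level, each in its own panel with its own axis from 0. Points are libraries (4 Apc_KO left, 4 Apc_HET, 4 Apc_WT) and bars are the mean ± SD. The Apc_KO points of Asb4 lie between 51.0 and 59.8 FPKM and those of Cntnap4 between 3.01 and 46.7 FPKM, while the other libraries sit at the bottom of each panel.

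The 14 genes for signalling, adaptor and cytoskeletal proteins had a median Apc_KO mean of 6.12 FPKM, and Asb4 stood well above the rest. Asb4, an ankyrin repeat protein of the SOCS box family, was at 57.9, 58.7, 59.8 and 51.0 FPKM in Apc_KO, against 0.242, 0.120, 0.127 and 0.286 FPKM in Apc_HET and 0.137, 0, 0.151 and 0.191 FPKM in Apc_WT. The 4 mice differed by a factor of 1.17, so the second highest gene of the group was also among the most even. Chn1, a chimaerin that switches off Rac, was nearly as even at a far lower level, at 4.28, 4.96, 4.05 and 4.14 FPKM in Apc_KO, with at most 0.330 FPKM in Apc_HET and 0.346 FPKM in Apc_WT.

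Jakmip3, a Janus kinase and microtubule interacting protein, split the Apc_KO mice differently, at 4.85, 18.4, 19.7 and 4.57 FPKM, with 0 in all other libraries. Ush1g, a scaffold protein of inner ear hair cells, was at 6.98, 24.6, 3.55 and 26.6 FPKM in Apc_KO, against 0.215 FPKM in 1 Apc_HET library and 0 in the other 7. The deposited Ush1g locus is 343 bases long, 1.85% of the gene, and its values are those of this fragment only.

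The 6 genes for transcription and RNA regulators include T, which encodes brachyury, the T-box factor of the primitive streak and notochord. T was at 17.0, 9.67, 15.2 and 20.8 FPKM in Apc_KO, against 0 in all 4 Apc_HET libraries and 0, 0.0944, 0 and 0.0219 FPKM in Apc_WT. H19, an imprinted and fetally expressed RNA, was at 25.5, 4.63, 10.5 and 5.61 FPKM in Apc_KO, with at most 0.111 FPKM in Apc_HET and 0.0360 FPKM in Apc_WT. Replicate 1 alone was above 20 FPKM. Igf2bp1, an RNA-binding protein of embryonic tissues, was at 9.35, 17.8, 7.22 and 9.95 FPKM in Apc_KO, against 0.0741, 0.150, 0.198 and 0 FPKM in Apc_HET and 0, 0, 0 and 0.0286 FPKM in Apc_WT. Mdfi, an inhibitor of MyoD family factors, was at 12.2, 7.69, 6.72 and 15.8 FPKM in Apc_KO, with at most 0.465 FPKM in Apc_HET and 0.212 FPKM in Apc_WT. The Igf2bp1 locus spans 8.81% of its gene.

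Of 15 genes for enzymes, channels and ion-binding proteins, Casq1, Alox12 and Gsdma had the highest means. Casq1, the calcium store protein of skeletal muscle, was at 11.2, 13.1, 11.2 and 30.0 FPKM in Apc_KO, with at most 0.135 FPKM in Apc_HET and 0.397 FPKM in Apc_WT. Alox12, a 12-lipoxygenase of arachidonic acid, was at 22.9, 8.37, 12.7 and 13.1 FPKM in Apc_KO, with at most 0.206 FPKM in Apc_HET and 0.0795 FPKM in Apc_WT. Gsdma, a gasdermin of skin and stomach epithelium, was at 14.1, 10.1, 13.2 and 18.9 FPKM in Apc_KO, with at most 0.273 FPKM in Apc_HET and 0.236 FPKM in Apc_WT. In all 3 genes the Apc_KO values did not overlap the other 8, which the rule requires of every gene of the group.

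At the low end of the same class, Car3, a carbonic anhydrase of muscle and fat, was the most even gene of all, at 3.63, 3.58, 3.81 and 3.45 FPKM in Apc_KO, against 0, 0, 0 and 0.320 FPKM in Apc_HET and 0 in Apc_WT. Msrb3, a methionine sulfoxide reductase, was at 3.63, 4.49, 3.75 and 4.38 FPKM in Apc_KO, with at most 0.0565 FPKM in Apc_HET and 0.0957 FPKM in Apc_WT. The sphingomyelinase gene Smpd5 was at 5.02, 3.47, 3.03 and 6.997 FPKM in Apc_KO, with at most 0.393 FPKM in Apc_HET and 0.417 FPKM in Apc_WT.

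For 10 genes no role is given here. Prr18 was at 26.4, 22.5, 19.5 and 22.4 FPKM in Apc_KO, against 0.347, 0.278, 0.314 and 0.370 FPKM in Apc_HET and 0.284, 0.392, 0.270 and 0.355 FPKM in Apc_WT. It was above 0 in all 8 of these libraries. Nxpe3 was at 27.5, 15.4, 17.1 and 19.2 FPKM in Apc_KO, with at most 0.436 FPKM in Apc_HET and 0.273 FPKM in Apc_WT, on a locus of 764 bases that covers 1.34% of the gene. Ccdc136 was at 13.2, 13.9, 10.6 and 8.85 FPKM in Apc_KO, against 0.146, 0.142, 0.488 and 0.181 FPKM in Apc_HET and at most 0.119 FPKM in Apc_WT. Apc_HET replicate 3 held the highest background value of this gene.

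The deposited loci of 20 of the 78 genes span under 80% of the annotated gene, and 17 genes had several listed loci that were summed. The locus of Gulo overlaps that of Clu, which was at 1126 ± 662 FPKM in Apc_KO, 29.6 ± 21.3 FPKM in Apc_HET and 27.5 ± 12.5 FPKM in Apc_WT (SD, n = 4 each), and no source states that fragments were assigned by strand, so Gulo's 7.60 ± 2.15 FPKM in Apc_KO cannot be told apart from reads of Clu. Prr18, Siglec15 and Ramp3 also overlap another measured locus.

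The genes were more uneven among the Apc_KO mice than other genes in the same range of Apc_KO means, which were not matched on level within it. The coefficient of variation over the 4 Apc_KO libraries had a median of 39.2% in the 78 genes and of 22.0% in 8708 other genes of the same Apc_KO range. The highest library over the lowest had a median of 2.33 in the 78 genes and 1.64 in those others. The ratio was under 2 in 30 genes, between 2 and 5 in 42 and 5 or more in 6, led by Cntnap4 at 15.5, Prss56 at 9.36, Ly6d at 9.21 and Ush1g at 7.48. It was smallest in Car3 at 1.10, Asb4 at 1.17, Chn1 at 1.22 and Msrb3 at 1.24. These ratios describe genes chosen for a floor in every Apc_KO library.

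**Figure D3:**
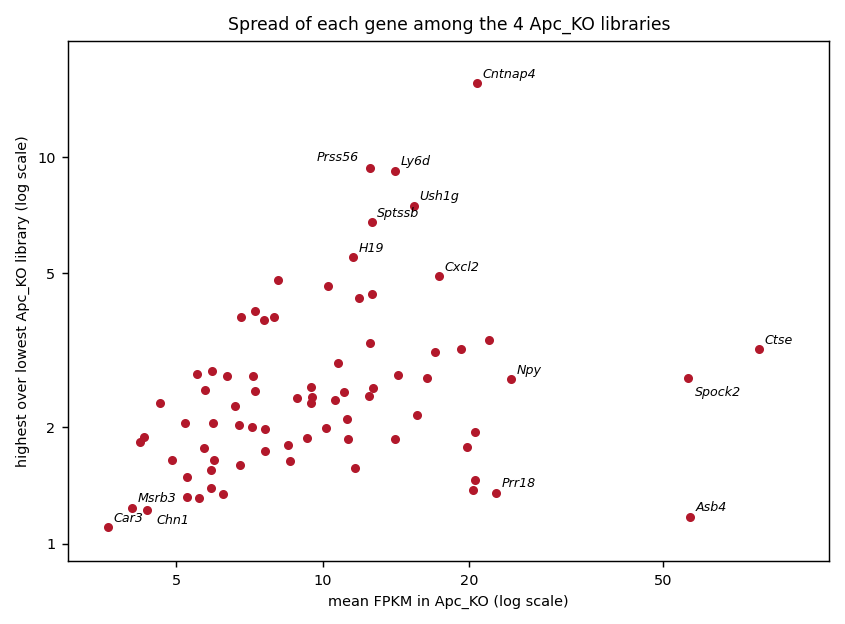
Highest over lowest Apc_KO library (vertical, log scale) against the mean FPKM in Apc_KO (horizontal, log scale), with 1 point for each of 77 of the 78 genes. Asb4 at a ratio of 1.17 and Cntnap4 at 15.5 mark the extremes among the genes above 20 FPKM.

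The rule asks for 3 FPKM or more in every Apc_KO library, so no single mouse could carry the group. Apc_KO replicate 1 had the highest value in 21 genes, replicate 2 in 9, replicate 3 in 17 and replicate 4 in 31. The shares of other genes of the same range with their highest value in these libraries were 26.0%, 15.9%, 21.8% and 36.3%. Replicate 1 had the lowest value in 8 genes, or 10.3%, while 31.6% of the other genes were lowest there. Replicates 1 and 4 also had less RNA of the stem cell marker Olfm4, at 106 and 81.7 FPKM, than replicates 2 and 3, at 674 and 702 FPKM, and less of the mitotic gene Top2a, at 49.8 and 53.8 FPKM, than replicates 2 and 3, at 141 and 147 FPKM. Ctse was higher in replicates 1 and 4 and Jakmip3 in replicates 2 and 3. The part of this split in the levels was not tested.

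Leaving libraries out of the choice shows how many genes each of them kept out of the group. The genes that also met the limit in the libraries left out are the 78 themselves, so only the number chosen can vary. With Apc_HET left out, 126 genes were under 0.5 FPKM in all 4 Apc_WT libraries and at 3 FPKM or more in all 4 Apc_KO libraries, and 78 of them, 61.9%, were under 0.5 FPKM in all 4 Apc_HET libraries. With Apc_WT left out, 91 genes were chosen, and 78, 85.7%, were also silent in Apc_WT. Neither share has a background over all genes beside it. A single library left out gave 78 to 101 genes. The library that changed the number most was Apc_HET replicate 3, with 101 genes chosen without it and 78 of them silent in it.

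**Figure D4:**
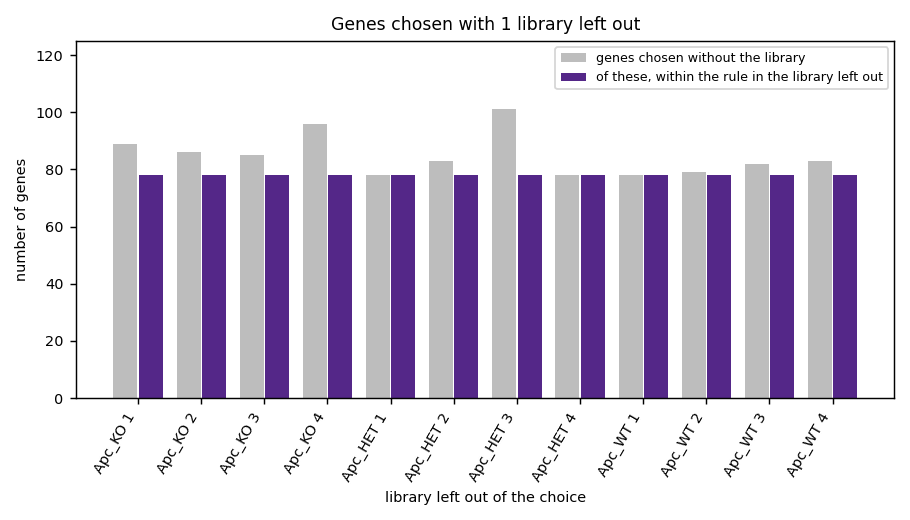
Number of genes chosen with 1 library left out (grey) and number of these that also met the limit in that library (purple), for each of the 12 libraries, Apc_KO left, then Apc_HET and Apc_WT. Without Apc_HET replicate 3 the choice grew to 101 genes. Without Apc_HET replicate 1, Apc_HET replicate 4 or Apc_WT replicate 1 it stayed at 78. The purple bars are at 78 by construction.

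Apc_HET replicate 3 stood apart from the other libraries with an intact copy. Of the 101 genes chosen without it, 26 were above 5% of their Apc_KO mean in it. In Apc_HET replicates 1, 2 and 4 the same count was 3 of 78, 6 of 83 and 5 of 78, and in the Apc_WT libraries it was between 3 and 9. Within the 78 genes, replicate 3 was the highest of the 8 libraries in 22, and each of the other 7 in 4 to 14. Genes kept out of the group by this library alone, named after their values were seen, include the retinoic acid enzyme gene Aldh1a2 at 2.08 FPKM there and at most 0.0136 FPKM in the other 7, and the smooth muscle actin gene Acta2 at 1.27 FPKM there and at most 0.240 FPKM in the other 7. The imprinted genes Dlk1 and Mest were at 1245 and 1256 FPKM in this library, against at most 13.9 and 26.6 FPKM in any other of the 12. Their part in the other values of this library was not tested.

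The thresholds cut through a continuous range. Just inside the Apc_KO floor lay Cntnap4, Il1rn and Smpd5, with lowest Apc_KO values of 3.01, 3.01 and 3.03 FPKM, and just outside it lay Hey1, Bex4 and Tex15, at 2.997, 2.97 and 2.95 FPKM. Just inside the limit of silence lay Ccdc136, Gdf11 and Mdfi, whose highest value outside Apc_KO was 0.488, 0.466 and 0.465 FPKM, and just outside it lay Rasip1, Gpc1 and Rasal1, at 0.502, 0.505 and 0.511 FPKM. The same 2 limits turned round found 0 symbols expressed in Apc_HET alone and 0 in Apc_WT alone. Silent in Apc_KO and expressed in every library of both other genotypes were 5 symbols, Gm15635, Ky, Mro, Nid2 and Sycn, and silent in Apc_WT alone was 1, Mdga1, named after their values were seen.

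The genes lay on 20 chromosomes, with 8 of the 78 on chromosome 7, or 10.3%, where 7.74% of measured genes lie. Bpifb1 and Bpifb5 were direct neighbours, 3298 bases apart on chromosome 2. On chromosome 17 a single measured locus, Gm16702, lay between Prr18, 26589 bases from it, and T, 54562 bases from it. Among the nearest measured genes on each side that were not in the group, 152 were tested. Of these, 22 passed the filter on low values only through Apc_KO and 20 of these were called higher. Over all genes tested, 897 passed only through Apc_KO and 726 of these were called higher, so nothing is read from the 20. Among the other 130, 36 were called higher in Apc_KO than in Apc_WT by limma (27.7%), against 23.9% of the 12065 genes that passed without Apc_KO, and 25 were called lower (19.2%), against 18.99%.

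Some neighbours, named after their values were seen, shared the pattern in part. Cxcl1, the chemokine gene 10711 bases from Cxcl2, averaged 71.7 FPKM in Apc_KO, 5.19 FPKM in Apc_HET and 2.35 FPKM in Apc_WT, a difference of 4.38 ± 0.53 (SE) on the log2(FPKM + 1) scale. Mt3, a metallothionein gene 13696 bases from Mt4, averaged 42.4 FPKM in Apc_KO, 1.13 FPKM in Apc_HET and 1.25 FPKM in Apc_WT. Pde10a, the next measured gene after T, averaged 5.09 FPKM in Apc_KO, 0.150 FPKM in Apc_HET and 0.162 FPKM in Apc_WT. Beside H19 the picture differed, since Igf2 averaged 1.66 FPKM in Apc_KO, 6.05 FPKM in Apc_HET and 2.59 FPKM in Apc_WT and was not called.

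The RefSeq promoter table of GRCm38.p6 holds 79 promoters of 54 of the 78 genes, each with 250 bases before the start site and 50 after it. 4 of them are printed, from genes described above that averaged over 10 FPKM in Apc_KO, 3 with and 1 without the letters of a site for the factors through which β-catenin acts. Capitals mark CTTTGA, the core letters of a TCF/LEF site, or its reverse complement TCAAAG. The fourth promoter holds neither. The windows are chr17:8434173-8434472 for T, chr10:60106007-60106306 for Spock2, chr2:154223492-154223791 for Bpifb5 and chr6:49822460-49822759 for Npy, all on the plus strand.
T: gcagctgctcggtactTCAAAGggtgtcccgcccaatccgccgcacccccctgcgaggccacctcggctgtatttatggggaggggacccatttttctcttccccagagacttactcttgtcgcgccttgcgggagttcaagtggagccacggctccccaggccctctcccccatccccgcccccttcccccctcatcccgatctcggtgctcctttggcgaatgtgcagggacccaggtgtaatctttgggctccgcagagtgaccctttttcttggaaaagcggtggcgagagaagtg
Spock2: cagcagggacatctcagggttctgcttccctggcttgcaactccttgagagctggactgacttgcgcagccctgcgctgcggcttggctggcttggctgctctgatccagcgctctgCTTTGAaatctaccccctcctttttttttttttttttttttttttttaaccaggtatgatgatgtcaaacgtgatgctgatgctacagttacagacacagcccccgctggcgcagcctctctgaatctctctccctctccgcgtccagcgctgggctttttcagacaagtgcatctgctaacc
Bpifb5: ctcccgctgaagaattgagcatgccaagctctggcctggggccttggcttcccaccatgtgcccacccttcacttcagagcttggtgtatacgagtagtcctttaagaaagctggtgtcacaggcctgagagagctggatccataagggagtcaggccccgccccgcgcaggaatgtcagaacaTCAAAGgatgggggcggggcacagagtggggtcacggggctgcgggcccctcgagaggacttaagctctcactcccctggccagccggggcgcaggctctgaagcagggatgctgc
Npy: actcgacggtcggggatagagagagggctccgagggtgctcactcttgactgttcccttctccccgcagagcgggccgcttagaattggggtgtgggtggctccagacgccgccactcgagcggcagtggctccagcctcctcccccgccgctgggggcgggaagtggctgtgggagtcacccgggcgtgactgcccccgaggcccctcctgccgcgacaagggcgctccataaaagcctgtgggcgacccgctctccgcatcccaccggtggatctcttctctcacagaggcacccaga

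The matched letters begin at position -234 from the start site in T, at -133 in Spock2 and at -66 in Bpifb5, with the start site counted as 0. Searched on both strands, CTTTGA was present in 11 of the 79 promoters, or 13.9%, with an exact binomial 95% interval of 7.16% to 23.5%. This interval takes the promoters as independent, although several share a gene and some overlap, so it is too narrow. CTTTGA was present in 5257 of all 32851 promoters of the table and in 12.5% of the 12813 promoters of genes in the deposited tables. CTTTGT, the other form of the core, was present in 15 of the 79 promoters, or 18.99%, in 18.7% of all promoters and in 14.5% of those of genes in the tables. AACAAT, the core letters of a SOX site, was present in 5.06%, 10.7% and 5.95% in the same order, TGANTCA of AP-1 in 6.33%, 7.81% and 5.52%, and TATAAA in 12.7%, 13.6% and 7.91%. No motif contains another, and the 2 TCF/LEF forms differ in their last base. A match is a description of letters and not a site of binding.

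The CpG content of the promoters was nearer to that of the whole table than to that of other measured genes, and the GC content was not. The observed over expected ratio of CpG had a median of 0.461 in the 79 promoters, 0.384 in all promoters and 0.729 in promoters of genes in the tables. The ratio was over 0.6 in 31 of the 79, or 39.2%, against 35.8% and 64.7%. The GC content had a median of 60.3% in the 79, 52.7% in all and 60.3% in those of genes in the tables. Several promoters belong to 1 gene and some overlap, so they are not independent.

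Genes of related programmes outside the group were read from lists in the same fit, without the 78 genes. A gene that reached 1 FPKM in 4 libraries only through Apc_KO was kept in part by its Apc_KO values. Of 897 such genes among all tested, 726 were called higher in Apc_KO than in Apc_WT. The counts are therefore over genes that passed this filter in Apc_HET and Apc_WT, and the others are given by their values. Of all 12962 genes tested, 27.9% were called higher and 17.7% lower. Of the 12065 that passed in this way, 23.9% were called higher and 18.99% lower, with a median of 0.08 for Apc_KO minus Apc_WT. Of 21 such Wnt targets, 14 were called higher in Apc_KO than in Apc_WT and 0 lower, with a median difference of 1.34, and 6 more, Notum among them, passed only through Apc_KO. Notum, a secreted Wnt inhibitor left out of the group by name, averaged 303 ± 49.9 FPKM in Apc_KO, 0.204 ± 0.0851 FPKM in Apc_HET and 0.233 ± 0.119 FPKM in Apc_WT (SD, n = 4 each). Prox1, a homeobox factor of colorectal tumours, averaged 118 ± 44.0 FPKM in Apc_KO, 1.77 ± 1.54 FPKM in Apc_HET and 1.07 ± 0.27 FPKM in Apc_WT. The differences were 7.93 for Notum and 5.77 ± 0.33 (SE) for Prox1 on the log2(FPKM + 1) scale, with a limma adjusted p of 8e-08 for Prox1. All later values in such form are on that scale.

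In the fetal and regenerative list, to which Spp1 and Il1rn of the group belong, 6 of the 11 other genes that passed without Apc_KO were called higher and 2 lower, with a median of 2.06. Clu, a marker of revival stem cells, differed by 5.22 ± 0.68 (SE, limma adjusted p = 5.4e-05). Anxa1, an annexin of repairing epithelium, averaged 55.3 ± 58.8 FPKM in Apc_KO, 4.21 ± 3.35 FPKM in Apc_HET and 0.493 ± 0.570 FPKM in Apc_WT, a difference of 4.44 ± 0.89 (SE). Marcks fell by 0.93 and Birc3 fell by 0.68. The list summed to 1765 to 2934 FPKM in Apc_KO, to 246 to 1540 FPKM in Apc_HET, with the highest in replicate 3, and to 285 to 652 FPKM in Apc_WT.

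In the stomach and foregut list, to which Ctse and Muc6 belong, 7 of the 11 other genes tested passed the filter only through Apc_KO. Of the 4 that passed without it, 2 were called higher and 1 lower, with a median of 0.33. Sox21, a SOX factor of foregut epithelium, averaged 21.3 ± 8.39 FPKM in Apc_KO, 0.184 ± 0.0710 FPKM in Apc_HET and 0.101 ± 0.0685 FPKM in Apc_WT, a difference of 4.28, and passed only through Apc_KO. Gkn1, a gastrokine that also passed only through Apc_KO, averaged 7.46 ± 4.40 FPKM in Apc_KO and 0.743 ± 1.49 FPKM in Apc_WT and was listed at 0 in Apc_HET. Lypd8, a protein of colon epithelium, was the 1 that fell, by 2.71, at 56.7 ± 18.4 FPKM in Apc_KO and 366 ± 60.3 FPKM in Apc_WT. The call of Gkn3 was lost under 7 alternatives.

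Of 9 imprinted genes other than H19 that passed without Apc_KO, 4 were called higher and 0 lower, with a median of 0.40, and 4 more passed only through Apc_KO. Cdkn1c, a cyclin-dependent kinase inhibitor, averaged 40.7 ± 11.9 FPKM in Apc_KO and 4.799 ± 1.37 FPKM in Apc_WT, and Peg3, a zinc finger protein that passed only through Apc_KO, 11.03 ± 4.99 FPKM in Apc_KO and 0.721 ± 0.173 FPKM in Apc_WT. The germline list, genes whose promoters are methylated in somatic cells, had 2 such genes, with 0 called higher and 1 lower, and Brdt, which passed only through Apc_KO, at 3.05 ± 1.24 FPKM in Apc_KO, 1.10 ± 0.44 FPKM in Apc_HET and 0.751 ± 0.436 FPKM in Apc_WT.

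**Figure D5:**
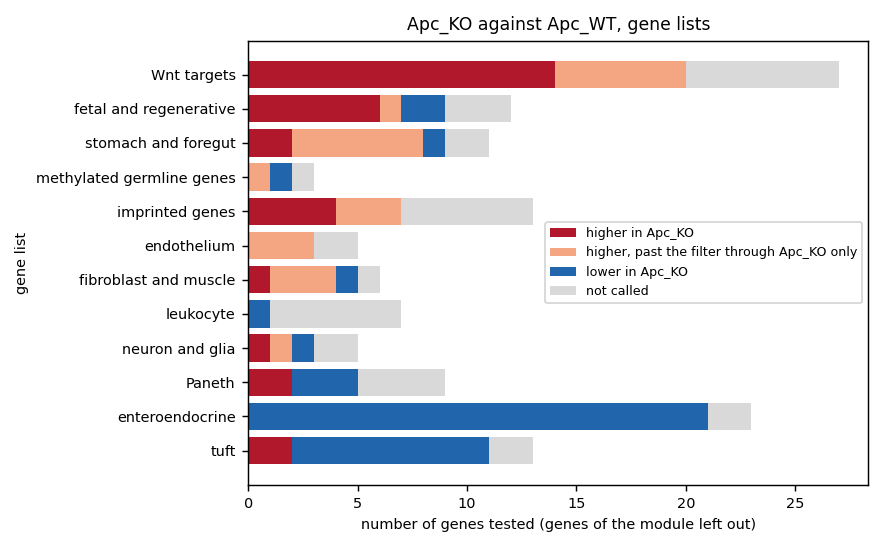
Number of genes of each list called higher in Apc_KO (red, with light red for genes past the filter only through Apc_KO), called lower in Apc_KO (blue) or not called (grey) against Apc_WT, by limma at an adjusted p under 0.05, with the 78 genes left out. The Wnt list has 14 higher in dark red and 6 in light red of 27, and the enteroendocrine list 0 higher and 21 lower of 23.

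Marker lists of other cell types give the context for members that such cells also express. Of 16 endothelial markers, 5 were measured and the other 11, Pecam1 and Kdr among them, were not analysed here. The 2 that passed without Apc_KO, Esam and Vwf, were not called, and Sox17, Cdh5 and Tek passed only through Apc_KO. The list summed to 172 to 233 FPKM in Apc_KO, 38.4 to 56.7 FPKM in Apc_HET and 51.1 to 78.5 FPKM in Apc_WT. Sox17, which is also an endoderm factor, averaged 106 ± 19.7 FPKM in Apc_KO and 0.0121 ± 0.0106 FPKM in Apc_WT, and Cdh5, the cadherin of vessels, 22.7 ± 7.07 FPKM in Apc_KO and 0.00395 ± 0.00789 FPKM in Apc_WT. Among the 78 genes, Flt1, a VEGF receptor of vessels, averaged 11.2 ± 3.65 FPKM in Apc_KO. The part of endothelial cells in its level was not tested.

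Of 15 fibroblast and muscle markers, 7 were measured and 6 tested. Of the 3 that passed without Apc_KO, 1, Vim, was called higher and 1 lower, and Acta2, Pdgfra and Rgs5 passed only through Apc_KO. The list summed to 136 to 164 FPKM in Apc_KO, 23.1 to 90.3 FPKM in Apc_HET and 11.03 to 28.5 FPKM in Apc_WT. Pdgfra averaged 17.3 ± 12.7 FPKM in Apc_KO and 0.0151 ± 0.0302 FPKM in Apc_WT, Vim 121 ± 8.85 FPKM in Apc_KO and 11.6 ± 5.48 FPKM in Apc_WT, and Pdgfrb, a pericyte marker, fell by 1.25. Their part in the levels of Timp1, Mmp11 and Casq1 was not tested. Of 7 leukocyte genes tested, 0 were called higher and 1, Itgam, fell by 1.63, or 3 fell without Apc_KO replicate 2, and Itgam, Ptprc, Cd79a, Ms4a1 and Itgax were at most at 1 FPKM in every Apc_KO library. The leukocyte list summed to 6.98 to 43.8 FPKM in Apc_KO, 19.8 to 56.4 FPKM in Apc_HET and 18.3 to 54.1 FPKM in Apc_WT. Of 4 neuronal and glial genes that passed without Apc_KO, 1 was called higher and 1, Ret, fell by 1.40, and Uchl1 passed only through Apc_KO, at 5.02 ± 1.51 FPKM in Apc_KO and 0.0675 ± 0.0562 FPKM in Apc_WT. The neuronal list summed to 13.5 to 18.1 FPKM in Apc_KO, 8.05 to 13.5 FPKM in Apc_HET and 6.08 to 13.5 FPKM in Apc_WT.

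Markers of the differentiated secretory cells went the other way or were mixed. Of 23 enteroendocrine genes tested, 0 were called higher and 21 lower, with a median of -1.44. Gip, an incretin hormone, fell by 4.64, and Sst, somatostatin, fell by 4.40. Npy, a hormone gene of the group, was thus at 16.6 FPKM or more in Apc_KO libraries in which the list summed to 36.4 to 169 FPKM, against 638 to 892 FPKM in Apc_HET and 357 to 1411 FPKM in Apc_WT. Of 13 tuft genes, 2 were called higher, with Avil at 2.77 and Cd24a at 0.83, and 9 lower, among which Trpm5 fell by 1.81. Of 9 genes tested on the Paneth list, 2 were called higher, with Pla2g2a at 4.49 and Mmp7 at 1.88, and 3 lower. Among the lower, Defa24 fell by 2.71 and Guca2b fell by 2.13, and whether Guca2b is particular to Paneth cells was not checked. Without Apc_KO replicate 1, in which the Paneth list summed to 7008 FPKM against 1777 to 3765 FPKM in the other Apc_KO libraries, 6 were called lower, with a median of -2.09.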

How the data were processed

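The deposited values are FPKM per assembled locus, per the file headers. Reads were handled with TopHat, Bowtie, Cuffdiff and Cufflinks and the genome was mm10 (GRCm38), per the submitters' processing notes. Versions, filters and any scaling between libraries are not given in the sources used here. Loci were summed per symbol, and 295 symbols with loci that differed between tables and 122 with failed estimates stayed out of the tests, but not out of the choice of genes. The test covered the 12962 genes that reached 1 FPKM in 4 or more of the 12 libraries. It used limma (version 3.58.1, R 4.3.3) and log2(FPKM + 1) values in a fit of all 12 libraries with a trend, two-sided, with Benjamini-Hochberg adjustment over all genes. The script was checked on simulated data. Python 3.11.15 did the rest. Depth is unknown, so no counting interval is given for levels, and FPKM values are relative.

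The members and the lists were chosen with earlier results of these data known. The 30 genes of the group named by rule are the 12 of highest Apc_KO mean, the 3 highest of each role class, the 4 most and 4 least even among Apc_KO libraries and those just inside the thresholds. Named by rule besides these 30 were the genes just outside the thresholds. So were, in each list, up to 2 genes with the largest called rise and 2 with the largest called fall. Certain items, 1 gene of the group among them, are not reported here. Roles were assigned from textbook knowledge. All 78 symbols matched RefSeq, N28178 as Phf24 and Gpr64 as Adgrg2. Coordinates are on GRCm38. Alternatives covered thresholds, pseudocounts, filters, scaling, loci, the fit, the replicate number as a block and each library left out.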

Additional observations from a re-analysis of the deposited data

Results flagged for a closer look

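Within the named genes, 9 of 90 groups of 4 libraries held 1 library far from the other 3 by Dixon's criterion. Groups with 4 equal values could not be flagged, and a single value above 3 zeros always was. The count is therefore not set against a rate of chance. In Apc_KO, replicate 4 stood above the rest for Casq1, at 30.0 FPKM with the others at 11.2 to 13.1 FPKM, and for Npy, at 44.2 FPKM with the others at 16.6 to 19.4 FPKM. In Apc_HET, replicate 3 stood above the rest for Ccdc136, at 0.488 FPKM with the others at 0.142 to 0.181 FPKM, for Robo1, at 0.192 FPKM with the others at 0.00684 to 0.0311 FPKM, and for Ush1g, at 0.215 FPKM with the others at 0. Replicate 4 did so for Car3, at 0.320 FPKM, and for Npy, at 0.148 FPKM, and replicate 2 for Cntnap4, at 0.0603 FPKM, each with the others at 0. In Apc_WT, replicate 4 had Igf2bp1 at 0.0286 FPKM with the others at 0.

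Of 3206 loci with no gene name in every table, 6 met the same limits as the 78 genes. The highest, at chr4:10935423-10943644, averaged 15.1 FPKM in Apc_KO, 0.226 FPKM in Apc_HET and 0.269 FPKM in Apc_WT. The locus at chr5:86767416-86768095 averaged 15.0 FPKM in Apc_KO and was at 0 in all 8 other libraries.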

How the results depend on the processing

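The number of genes follows the thresholds. A limit of silence of 0.25 FPKM gave 44 genes and one of 1 FPKM gave 143, and an Apc_KO floor of 1 FPKM gave 202 and one of 5 FPKM gave 41. It was 78 with size factors, 80 with the highest locus of a symbol, 76 with agreeing loci only, and 58 where the locus covered 80% of the gene or more, an alternative chosen after the data were seen. With 1 library left out it was 78 to 101. Calls over all genes with 1 library left out were 5124 to 5762 for Apc_KO minus Apc_WT, 4558 to 5198 for Apc_KO minus Apc_HET and 0 to 4 for Apc_HET minus Apc_WT, against 5904, 5413 and 0. Pseudocounts of 0.1 and 0.5 and the fit of 2 genotypes each called 1 gene in Apc_HET minus Apc_WT, Mdga1, which is not among the 78. Without Apc_HET replicate 4 the 4 genes were Cdh11, Crabp2, Fkbp10 and Smarca1, and without Apc_WT replicate 3 the 3 genes were Gm5682, Gm6034 and Gm9574.

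The share of calls that were higher in Apc_KO minus Apc_WT was 61.2%, 52.3% with size factors and 47.6% with quantile normalization, as the median of all genes moved to 0.03 and -0.02. List genes called numbered 95, and 81 to 98 with 1 library left out. Over list genes that passed the filter without Apc_KO, a restriction chosen after the data were seen, they numbered 71 of 106. The call of Lgr5 was lost under 7 alternatives, of Gkn3 under 7, of Sh2d6 under 4, of Nts under 3, and of Insm1 under 1. Correlations of deviations between same-numbered libraries ran from -0.195 to 0.180 and not every pair passed 0.1, so the numbers were not taken as pairs. With the replicate number as a block the calls were 5681, 5178 and 0 in the same comparisons, and 95 in the lists. On the gene's strand only, CTTTGA was in 6.33% of promoters, and with a floor of 5 FPKM TGANTCA was in 0%. Among named genes, a pseudocount of 0.1 raised all 60 differences and size factors moved none beyond the replicate spread. Depth limits what values under 0.5 FPKM can show.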
